A study of Mus musculus with 6 samples.

Results

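Mesenchymal cells of mouse kidney, sorted singly into wells through a gate labelled mesenchyme, were compared between day 10 of unilateral ureteric obstruction (UUO) and uninjured kidney. Wells were chosen by the text label that the deposited plate layouts give them, and kept when they held at least 1000 genes and 20000 reads on genes. This left 364 of 372 uninjured wells and 376 of 384 day 10 wells, that is 740 of the 2235 kept wells of the series. The series sequenced cells on 6 plates with Smart-seq2, in which each well holds 1 cell and reads cover the length of its transcripts. Per the labels each plate mixed cells of 1 healthy mouse, 1 mouse at day 2 of UUO and 1 mouse at day 10, and the tissue was digested with enzymes before sorting. Strain, age, sex, the antibodies of the gate and any transgene are not given in the sources used here, although the count tables carry an entry named eGFP.

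Each layout label carries a number from 1 to 4, assumed here to stand for a mouse, since nothing else in the layouts does. Reads were added up over the wells of 1 number and condition, which gave 4 uninjured sums (120, 61, 61 and 122 wells) and 4 day 10 sums (126, 64, 61 and 125 wells). Numbers 1 and 4 cover a pair of plates each, and numbers 2 and 3 cover a single plate. The day 2 cells of the same gate (366 of 384 wells) entered the fit to share its estimate of the spread. In every plate a condition and gate filled the same 4 plate columns, so the condition and the plate columns cannot be told apart. The sums held 19382742 to 42619147 reads, and the median well held 355733 reads in uninjured and 312617 in day 10 kidneys. A sum mixes cell types, so fewer cells of a type and less RNA per cell cannot be told apart in it.

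The mesenchyme of the kidney comprises the mural cells that wrap vessels (arterial smooth muscle cells, pericytes, mesangial cells of the glomerulus and renin cells of the afferent arteriole) and the fibroblasts of the interstitium. Obstruction of a ureter injures the tubules, and the interstitium then fills with collagen-rich matrix, which is why the model is used to study fibrosis. Mural cells hold vessel tone with a contractile apparatus of smooth muscle actin and myosin, whereas activated fibroblasts secrete collagens, glycoproteins and the enzymes and inhibitors that remodel them.

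The label of the gate matched the markers of its wells. Of 12 mural markers all were detected in both conditions, and at least 3 of them reached a CPM of 50 (counts scaled to library size) in 326 uninjured and 299 day 10 wells. Pdgfrb, the receptor for platelet-derived growth factor that marks kidney mesenchyme, held 1089, 850.1, 1070.5 and 989 CPM in the uninjured sums and 1146, 649, 902 and 933 at day 10 (numbers 1 to 4, scaled by the trimmed mean of M-values, TMM, as are all CPM of sums below). Its log2 change of -0.16 ± 0.11 (SE, n = 4) did not pass edgeR's quasi-likelihood F test (adjusted p = 0.601). Pecam1, an adhesion protein of endothelium, stayed between 0.541 and 1.97 CPM in uninjured sums and between 0.595 and 12.5 at day 10. The transcripts of red cell globins were at 0 in every sum.

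Among 14582 genes tested, 97 were higher at day 10 (0.665%) and 96 were lower (0.658%), 1.32% in all, at a Benjamini-Hochberg adjusted p under 0.05 in edgeR's test. In 167 of these 193 genes the 4 uninjured and the 4 day 10 sums did not overlap, against 1146 genes (7.86%) among all tested. The calls rest on the same sums, so the larger share follows from the selection and adds no support. The median change of all genes was 0.04 on the log2 scale. Counts of list members given below for all wells are to be read beside 0.665% higher and 0.658% lower over all genes. The count of calls changed with the number left out: it was 51 without number 1, 205 without number 2, 28 without number 3 and 42 without number 4. Each of these fits also held fewer sums. The assumed mouse, its plates and the loss of sums cannot be told apart here. Of the 77 called genes named below, 9 passed in each of these 4 fits, namely Ptgs2, Lcn2, Timp1, Itih4, Rasl10b, Kap, Serpine2, Stat3 and Id1. A further 16 passed in none of them. Where a gene is said to lose its call without a number, the number stands in for the sums of that number in all 3 conditions.

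Itih4, a liver-type acute-phase protein of the inter-alpha-trypsin inhibitor family (chr14:30886476-30902353, GRCm38.p6), rose in every number. It held 5.33, 33.6, 2.95 and 15.9 CPM in the uninjured sums and 731, 1056, 794 and 916 at day 10, so the day 10 sums lay close together and far above every uninjured one. Its log2 change was 6.24 ± 0.58 (adjusted p = 0.00145). Serpina3n, a secreted inhibitor of serine proteases that belongs to the acute-phase response, was at 0 in 2 uninjured sums, at 0.197 and 2.99 CPM in the others, and at 122, 84.6, 148 and 190.2 CPM at day 10. The change was 8.08 ± 0.96 (adjusted p = 0.00403, lost without number 3), and reads of the similar genes of the Serpina3 family may be shared. Itih3, the neighbour of Itih4 on the chromosome and of the same family, rose from 3.36, 0.0476, 9.39 and 1.24 CPM to 53.6, 59.9, 61.1 and 31.3, a change of 4.30 ± 0.90 (adjusted p = 0.0494, lost without number 1, 3 or 4).

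The receptor Osmr, the shared receptor chain Il6st and the transducer Stat3 of the interleukin-6 family rose as well, whereas Il6ra (0.85), Lifr (-0.33) and Il11ra1 (-0.91), further receptors of the list, did not pass (adjusted p from 0.168 to 0.452). These receptors share the chain gp130, encoded by Il6st, and signal through the transcription factor STAT3. Stat3 held 205, 236, 164 and 175 CPM in the uninjured sums and 431, 605, 446 and 404 at day 10, without overlap, and its change of 1.27 ± 0.14 passed in each fit that left out a number (adjusted p = 0.00331). Osmr, the oncostatin M receptor, held 123, 25.8, 41.3 and 90.1 CPM against 502, 326, 303 and 411, a change of 2.61 ± 0.32 (adjusted p = 0.00519, lost without number 3). Il6st rose by 1.08 ± 0.16 (adjusted p = 0.0117), from 186 ± 15.9 to 393 ± 72.0 CPM (SD, n = 4), and lost its call without number 1, 3 or 4. Bcl3, a nuclear cofactor of NF-kB induced by cytokines, held 0 to 2.21 CPM in the uninjured sums and 25.2 to 56.3 at day 10, with a change of 4.88 ± 0.96 (adjusted p = 0.037, lost without number 1, 3 or 4).

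Secreted products of the same list included Fgl2, a fibrinogen-like protein, with 41.9, 13.05, 25.7 and 25.4 CPM in uninjured and 102, 131, 149.9 and 201 CPM in day 10 sums. Its change was 2.50 ± 0.31 (adjusted p = 0.00533, lost without number 3 or 4). Clusterin, the extracellular chaperone encoded by Clu, went from 363 ± 158 to 1941 ± 744 CPM, a change of 2.43 ± 0.37 (adjusted p = 0.0124, lost without number 3 or 4). By the split of wells described below, Clu went from 468, 115, 138 and 238 to 1473, 1298.5, 1842.5 and 1546 CPM in mural-marked wells. In wells with neither mural nor fibroblast markers it was higher, with 977, 994, 1881 and 1189 CPM against 2266, 13290, 6854 and 3474 at day 10. Crispld2, a secreted protein, rose from 80.0 ± 33.9 to 380.2 ± 144 CPM (2.25 ± 0.33, adjusted p = 0.0105, lost without number 1 or 3). Il11, the gp130 cytokine, had no read in 364 uninjured wells and 295 reads at day 10, at least 105-fold higher when the uninjured group is set to a floor of 3 reads, and its call (adjusted p = 0.0338) was lost in each of the 4 fits that left out a number. In all, 12 of 28 tested members of the acute-phase and interleukin-6 list rose and none fell, with a median change of 1.51, where 0.665% of all genes rose. Without wells of epithelial markers 8 of 28 rose, where 0.979% of all genes passed in either direction. In mural-marked wells 8 of 25 rose, where 0.491% of all genes did. Osmr, Il6st, Fgl2, Clu, Crispld2 and Il11 are named because they passed, after their values were seen.

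The promoters of Itih4 and Fgl2 are shown because both genes rose and both windows hold the letters TTCNNNGAA, a form of the element that STAT dimers bind, printed here in capitals. They are the 250 bases before the RefSeq start (GRCm38.p6, plus strand, chr14:30886226-30886475 for Itih4 and chr5:21372423-21372672 for Fgl2), written 5′ to 3′.
Itih4: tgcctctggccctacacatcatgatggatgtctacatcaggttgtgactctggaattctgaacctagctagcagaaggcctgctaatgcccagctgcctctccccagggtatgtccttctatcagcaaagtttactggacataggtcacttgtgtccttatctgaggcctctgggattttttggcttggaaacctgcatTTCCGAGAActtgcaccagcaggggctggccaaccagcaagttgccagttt
Fgl2: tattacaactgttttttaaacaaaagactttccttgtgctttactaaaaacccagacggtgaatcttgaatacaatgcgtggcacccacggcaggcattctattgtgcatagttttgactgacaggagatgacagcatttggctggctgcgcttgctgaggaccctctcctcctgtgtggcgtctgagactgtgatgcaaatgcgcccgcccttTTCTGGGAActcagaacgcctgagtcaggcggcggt
The motif begins 51 bases before the start of Itih4 and 36 bases before that of Fgl2. It reads the same on both strands, so a search of 1 strand covers both. Of 32851 windows of this length in the RefSeq table, 2306 (7.02%) hold it, as do 2197 of the 27025 windows of genes in the count tables (8.13%). In the list 5 of 26 windows hold it (19.2%), and so do 2 of the 11 windows of members that passed. A match of letters is a description of the window and not evidence of binding.

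**Figure D1:**
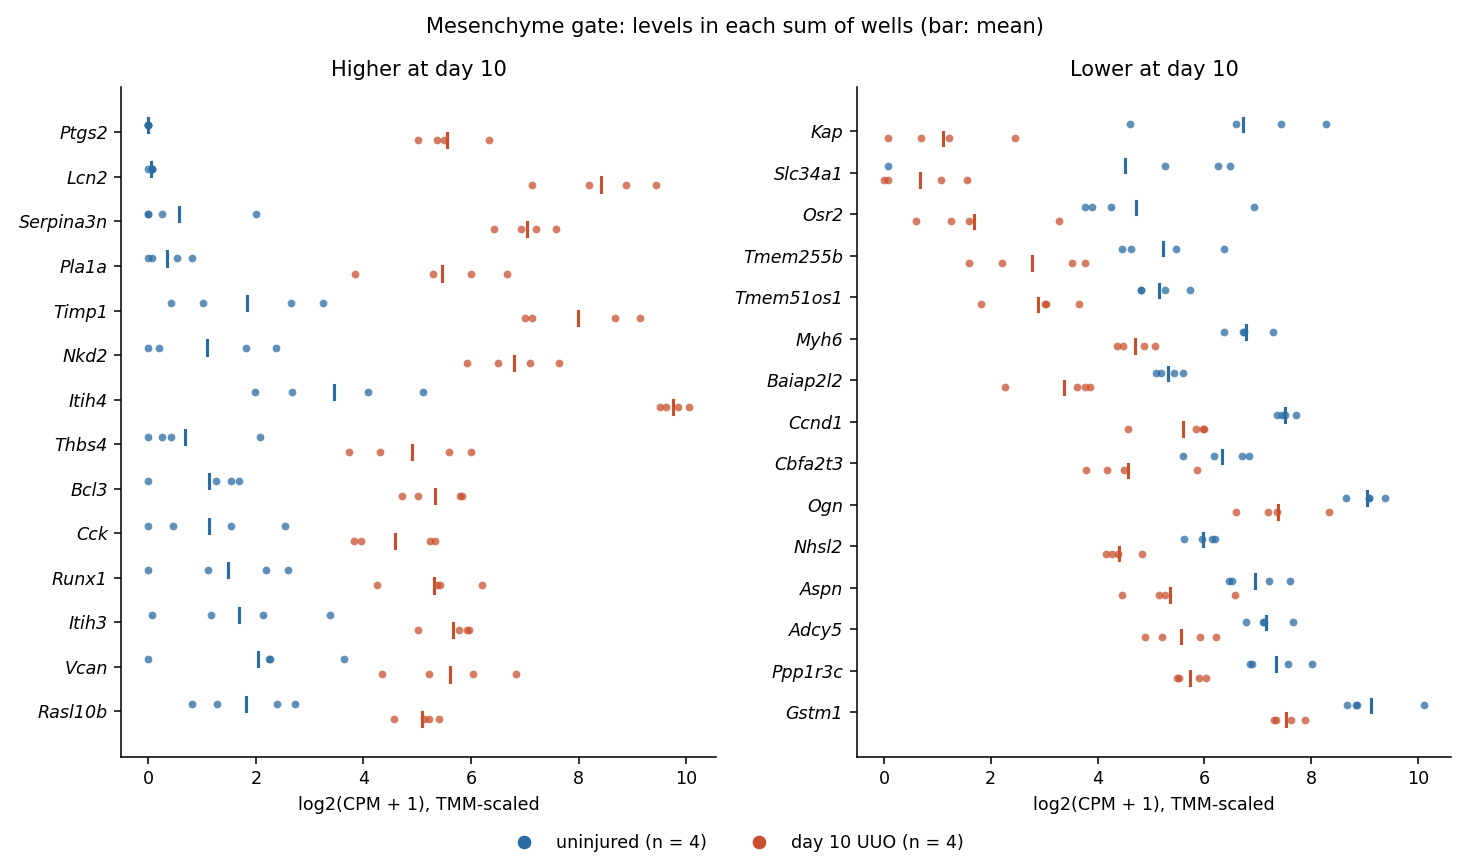
Level of 14 of the 15 genes of largest rise and of the 15 of largest fall in each sum, as log2(CPM + 1) with TMM scaling on the x axis. Points are the 4 uninjured and the 4 day 10 sums and bars are their means, and the day 10 points of Itih4 (731 to 1056 CPM) stand apart from the uninjured ones (2.95 to 33.6 CPM).

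Most of the rise of Itih4 and Serpina3n lay in wells with mural markers. Wells were split by fixed marker lists into those with at least 3 fibroblast markers at 50 CPM (18 uninjured and 74 day 10 wells), the remaining wells with at least 3 mural markers (312 and 248 wells), and wells with neither (34 and 54). By number, the fibroblast-marked wells were 2, 1, 4 and 11 in uninjured and 26, 3, 16 and 29 in day 10 kidneys. Many fibroblast-marked wells carried mural markers too. Wells with at least 3 mural markers were 326 and 299 before fibroblast-marked wells were taken out, and 312 and 248 after. At least 50 CPM of Itih4 were found in 12 of 312 uninjured and 136 of 248 day 10 mural-marked wells (54.8%), in 0 of 18 and 8 of 74 fibroblast-marked wells, and in 0 of 34 and 1 of 54 wells with neither. Summed over mural-marked wells alone, Itih4 held 5.95, 35.3, 3.87 and 19.2 CPM in uninjured and 1009, 1317, 1337 and 1446 CPM in day 10 kidneys, with a change of 6.59 ± 0.55 (adjusted p = 0.000505). The rise was thus seen within mural-marked wells in all 4 numbers. In the endothelia gate, the wells with 50 CPM of Itih4 were 1 of 380 uninjured and 2 of 381 at day 10, although the difference of the changes between the gates, 4.90, did not pass the test of that difference (adjusted p = 0.104). That test called 41 of 16116 genes (0.254%).

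Serpina3n reached 50 CPM in 0 of 312 uninjured and 59 of 248 day 10 mural-marked wells. It also did so in 1 of 18 and 17 of 74 fibroblast-marked wells, and in 0 of 34 and 4 of 54 wells with neither. The day 10 shares of mural-marked and fibroblast-marked wells with Serpina3n were thus close, while mural-marked wells held 89.7% of its day 10 reads. Of the 59 mural-marked wells 52 also held Itih4 (88.1%), and these 52 were 38.2% of the 136 mural-marked Itih4 wells. All mural-marked day 10 wells of either gene also held 50 CPM of Acta2, the smooth muscle actin, which 225 of the 248 wells carried. Osmr reached 50 CPM in 47 of 312 and 168 of 248 mural-marked wells, and also in 3 of 18 and 63 of 74 fibroblast-marked wells. Rasl10b, a Ras-like small GTPase, rose from 0.765, 1.43, 4.28 and 5.64 CPM to 22.8, 36.4, 41.4 and 33.9 (3.83 ± 0.44, adjusted p = 0.00347), and 67 of its 72 day 10 wells were mural-marked, 52 of them with Itih4.

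Among mural-marked wells that also carried smooth muscle markers, Itih4 was found in 12 of 293 uninjured and 136 of 215 day 10 wells (63.3%). Among those that carried pericyte markers it was found in 1 of 56 and 9 of 30 wells. A well can carry both sets, so these counts overlap.

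Renin, encoded by Ren1 (chr1:133350510-133360325), is the hormone that renin cells release to start the angiotensin cascade. It held 72.4, 18.3, 34.0 and 24.8 CPM in uninjured and 473, 92.6, 244 and 152 CPM in day 10 sums. The lowest day 10 sum was above the highest uninjured one, and the change was 2.63 ± 0.33 (adjusted p = 0.00536, lost without number 3). Wells with 50 CPM of Ren1 went from 33 to 117, of which 32 and 109 were mural-marked. Within mural-marked wells the level rose in every number, from 80.8 to 625, from 19.1 to 115, from 44.2 to 412 and from 26.7 to 239 CPM (2.98 ± 0.34, adjusted p = 0.00244). Of the 109 Ren1 wells at day 10, 68 also held Itih4 (62.4%). Ren1 was the only 1 of 11 tested genes of the renin-angiotensin list to pass, and mice of some strains carry the near-identical Ren2, with which reads can be shared.

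Genes of the contractile apparatus were among those that fell at day 10. Acta2 (chr19:34241090-34255590), the most abundant transcript of that list, held 24590.5, 24618, 25148 and 22063 CPM in uninjured and 14936, 18432, 16176 and 12152 CPM in day 10 sums. All 4 day 10 sums were below all uninjured ones, and the change was -0.66 ± 0.09 (adjusted p = 0.00862). Myh11, the smooth muscle myosin heavy chain, held 5012, 5645, 4555 and 5062 CPM against 2113, 3502, 2693 and 2282, again without overlap (-0.95 ± 0.13, adjusted p = 0.00862). Ppp1r14a, an inhibitor of myosin phosphatase that keeps smooth muscle contracted, fell from 62.4, 55.7, 102 and 90.7 to 16.4, 28.4, 45.2 and 27.1 CPM (-1.46 ± 0.23, adjusted p = 0.013). Transgelin, an actin-binding protein encoded by Tagln, fell from 3615 ± 687 to 2305 ± 479 CPM (-0.65 ± 0.11, adjusted p = 0.0153).

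Of 30 tested members of the contractile list 9 fell and none rose, with a median change of -0.58, and only 2 of the 30 changes were above 0. The other members that passed were Smtn, Myl9, Mylk, Myl6 and Mef2c, named after their values were seen. Their changes ran from -0.59 ± 0.11 for Mylk, the kinase of the myosin light chain, to -0.80 ± 0.14 for Smtn, the actin-binding smoothelin. Myl9 is the regulatory light chain that this kinase phosphorylates, and Myl6 the essential light chain. Mef2c, a transcription factor of muscle, had a change of -0.62 ± 0.13 (adjusted p = 0.0498), which was lost in each fit without a number. All of the other 8 lost their calls without number 1, without number 3 and without number 4.

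The promoters of Myl9 and Myl6 are shown because both genes fell and both windows hold a CArG box, the element that serum response factor binds in smooth muscle genes, in capitals. They are the 250 bases before the start in the RefSeq table (GRCm38.p6), which for these genes and for Fgl2 is not the outermost start of the gene. The window of Myl9 is chr2:156775214-156775463 on the plus strand and that of Myl6 is chr10:128493010-128493259 on the minus strand.
Myl9: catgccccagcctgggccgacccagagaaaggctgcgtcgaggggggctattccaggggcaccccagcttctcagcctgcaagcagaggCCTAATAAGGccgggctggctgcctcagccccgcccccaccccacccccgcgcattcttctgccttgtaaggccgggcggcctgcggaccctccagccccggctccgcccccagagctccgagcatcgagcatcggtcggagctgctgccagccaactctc
Myl6: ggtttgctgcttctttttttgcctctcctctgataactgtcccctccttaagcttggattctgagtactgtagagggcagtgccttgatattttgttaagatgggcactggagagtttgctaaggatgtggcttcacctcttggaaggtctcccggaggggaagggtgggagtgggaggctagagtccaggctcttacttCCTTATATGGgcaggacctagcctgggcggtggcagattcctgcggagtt
The box begins 161 bases before the start of Myl9 and 50 bases before that of Myl6, and the pattern is its own reverse complement. Among all 32851 windows 482 (1.47%) hold it, as do 439 of the 27025 windows of genes in the count tables (1.62%). In the contractile list 4 of 25 windows hold it (16%), and so do 2 of the 7 windows of members that passed. No change in Srf or another factor follows from a match.

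Part of the lower contractile level was seen within mural-marked wells. Summed over these, Acta2 held 27139, 25646, 30595 and 26448 CPM in uninjured and 19516, 22779, 25387 and 18733 CPM in day 10 kidneys, and the 2 groups did not overlap. The change there was -0.36 ± 0.08, smaller than over all wells, and did not pass (adjusted p = 0.0776). That of Myh11 did, with -0.64 ± 0.11 (adjusted p = 0.0324), and that of Ppp1r14a was -1.25 (adjusted p = 0.0412). Over the list, 2 of 30 members fell in mural-marked wells, where 0.317% of all genes did, and the median change was -0.32. Wells with at least 50 CPM of Acta2 were 294 of 312 uninjured and 225 of 248 day 10 mural-marked wells.

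Of 21 tested markers of mural cells 4 fell and none rose, with a median change of -0.50. Notch3, the receptor that maintains arterial smooth muscle, held 706, 779, 929 and 701 CPM against 295, 465, 577 and 452 at day 10, without overlap (-0.82 ± 0.16, adjusted p = 0.0307). Adcy5, an adenylyl cyclase, fell from 108, 201, 137 and 138 to 36.0, 73.6, 59.6 and 28.5 CPM (-1.60 ± 0.24, adjusted p = 0.0103). Ndufa4l2, a mitochondrial protein enriched in pericytes, and Rgs5, a brake on G protein signalling, fell with overlap of the groups, by 1.02 ± 0.19 and by 0.59 ± 0.12 on the log2 scale (adjusted p = 0.0241 and 0.0457). Adcy5 lost its call without number 1 or 3, Notch3 and Rgs5 without number 1, 3 or 4, and Ndufa4l2 without any 1 number. Notch3, Rgs5 and Ndufa4l2 are also among the markers by which wells were called mural-marked, so levels within that class do not give an independent value for them.

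Myh6, the alpha heavy chain of cardiac myosin, was among the largest falls, from 105, 155, 106 and 81.3 to 21.2, 32.8, 28.1 and 19.5 CPM (-2.16 ± 0.41, adjusted p = 0.0301). Its wells at 50 CPM went from 105 to 38, and the change in mural-marked wells was -1.84 (adjusted p = 0.0374). Ogn (osteoglycin) and Aspn (asporin), neighbouring genes of small leucine-rich proteoglycans that bind collagen, were lower too. Ogn held 539, 539, 399.5 and 669.6 CPM against 146, 324, 95.9 and 164 (-1.66 ± 0.29, adjusted p = 0.022), and Aspn held 130.0 ± 50.6 against 46.9 ± 32.7 CPM with overlapping groups (-1.61 ± 0.29, adjusted p = 0.0226). They were the 2 of 10 proteoglycans of their list to pass, and the median of the list was -0.83. All 3 genes lost their calls without number 1, 3 or 4.

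Fibrillar collagens were among the matrix genes that rose at day 10. Type I collagen, the main fibril of scar tissue, was read through Col1a1 (chr11:94936224-94953042), with 37.97, 12.4, 230.5 and 236 CPM in uninjured and 731, 180.0, 1421 and 734.1 CPM in day 10 sums. Number 2 was lowest in both conditions, and its day 10 sum lay below 2 uninjured sums, so the groups overlapped. The change was 2.97 ± 0.48 (adjusted p = 0.0144, lost without number 1, 2 or 3). Col1a2, the partner chain, rose from 322 ± 156 to 953 ± 539 CPM with overlap (1.45 ± 0.27, adjusted p = 0.0285, lost without number 1, 3 or 4).

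Type V and type XII collagens, which set the width of type I fibrils and link them to their surroundings, rose as well. Col5a2 held 58.7, 19.4, 39.2 and 57.2 CPM against 348, 74.9, 301 and 157 (2.19 ± 0.34, adjusted p = 0.0131), and Col12a1 held 126, 113, 54.0 and 221 CPM against 747, 254, 795 and 826 (2.33 ± 0.36, adjusted p = 0.0132), both without overlap. Col5a1 rose by 1.54 ± 0.23 (adjusted p = 0.0113) with overlapping groups. Both Col5a2 and Col12a1 lost their calls without number 1 or 4, and Col5a1 without number 1, 3 or 4. Of 18 tested collagens of the fibrillar list 5 rose and none fell, with a median change of 2.03. Col3a1, the type III chain, had a change of 1.88 ± 0.45 that did not pass (adjusted p = 0.0756). Of 16 basement membrane genes none passed in either direction, and their median was -0.03.

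The share of wells with fibroblast markers moved with these genes. It was 1.67%, 1.64%, 6.56% and 9.02% in uninjured and 20.6%, 4.69%, 26.2% and 23.2% in day 10 kidneys, that is 18 and 74 wells. The share was higher in each number at day 10, and number 2 again gave the lowest day 10 value, below 2 of the uninjured values. An exact permutation test of the 4 against 4 shares (two-sided, smallest possible p 0.0286) gave p = 0.0857, and 0.184 after adjustment over 15 marker classes. The list counts Col1a1, Col1a2 and Col3a1 among its 7 markers, so the share and these genes are not independent. Leaving out fibroblast-marked wells, the change of Col1a1 was 1.61 (adjusted p = 0.0856), that of Col5a1 was -0.10 within mural-marked wells, and the median of the collagen list in mural-marked wells was 0.22, with 1 of 15 members rising, where 0.491% of all genes rose. The exception was Col12a1, which rose within mural-marked wells by 1.46 ± 0.25 (adjusted p = 0.0239), and which took 65.6% of its day 10 reads from fibroblast-marked and 33.6% from mural-marked wells.

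**Figure D2:**
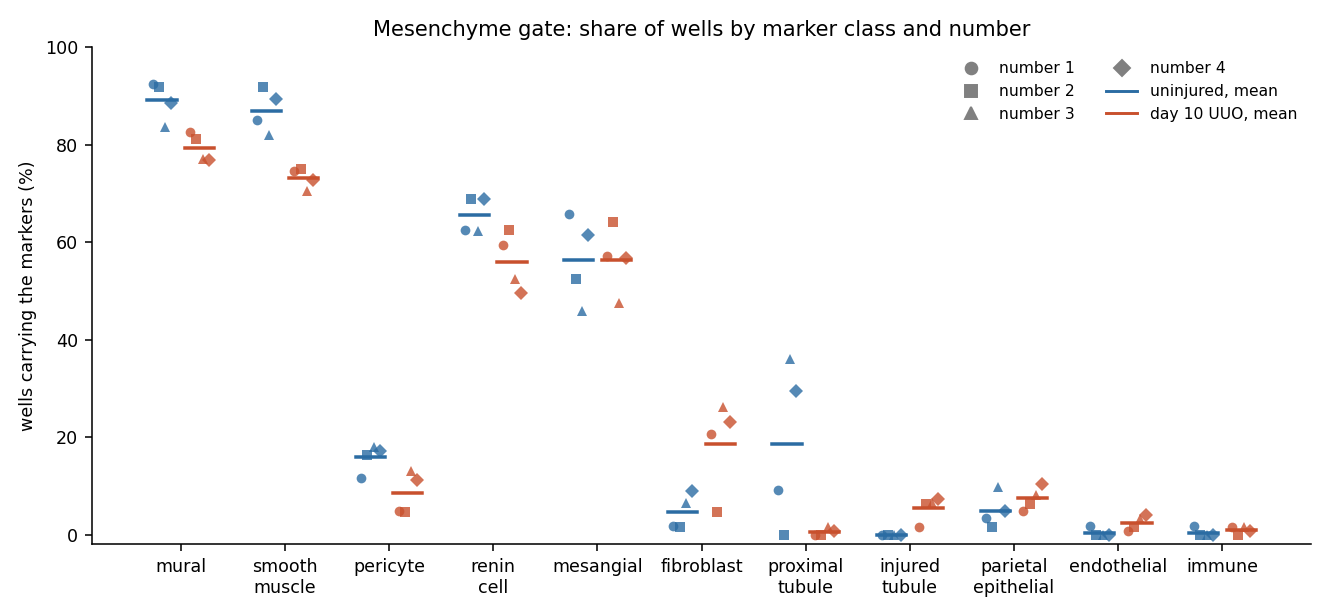
Share of mesenchyme gate wells that carried the markers of each class (y axis, %), by number (symbol) and condition, with the mean of the 4 sums as a bar. Classes overlap here, since a well can carry several sets. Wells with mural markers, fibroblast-marked ones included, were 76.8% to 82.5% at day 10 against 83.6% to 92.5% in uninjured kidneys, and fibroblast-marked wells 4.69% to 26.2% against 1.64% to 9.02%.

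Wells with at least 3 mural markers, those that also carry fibroblast markers included (326 uninjured and 299 day 10 wells), made up 92.5%, 91.8%, 83.6% and 88.5% of uninjured and 82.5%, 81.3%, 77.0% and 76.8% of day 10 wells, without overlap (exact permutation p = 0.0286, the smallest that 4 against 4 sums can give, and 0.143 after adjustment). The mural-marked wells of the split used here, from which fibroblast-marked wells are taken out (312 and 248 wells), made up 90.8%, 91.8%, 77.0% and 82.0% against 69.8%, 79.7%, 54.1% and 60.8%. These shares were lower at day 10 in 4 of 4 numbers, but the groups overlapped (exact permutation, two-sided, p = 0.0571). Wells with smooth muscle markers went from 317 to 276 and wells with pericyte markers from 56 to 31. No class passed after adjustment over the 15, but a class could pass only if at least 9 of the 15 reached the smallest p, so this says little about any of them. A class is a range of marker counts: 8 uninjured and 12 day 10 wells held exactly 3 fibroblast markers, and 53 and 62 wells held exactly 1 marker fewer.

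Fibroblast-marked wells of day 10 also held most of the reads of several secreted or signalling genes. Many of these wells carried mural markers as well, and doublets were not called. Their read shares are therefore not shares of fibroblasts alone. Nkd2, an antagonist of Wnt signalling that binds Dishevelled (chr13:73818534-73847631), held 4.17, 0, 0.148 and 2.52 CPM in uninjured and 137, 59.9, 199 and 89.7 CPM in day 10 sums. The groups were far apart (6.44 ± 1.16, adjusted p = 0.024, lost without number 1, 3 or 4), and 98.8% of its day 10 reads came from fibroblast-marked wells. Its wells at 50 CPM were 0 of 18 uninjured and 44 of 74 day 10 fibroblast-marked wells, but 4 of 312 and 3 of 248 mural-marked wells, where the change was -1.75 (adjusted p = 0.906). Wnt2, a Wnt ligand, had no read in uninjured wells and 16.4, 4.33, 39.3 and 11.8 CPM at day 10, at least 703-fold higher against a floor of 3 reads over the uninjured group (adjusted p = 0.032, lost without any 1 number), with 99.2% of its reads in fibroblast-marked wells. Together they were the 2 of 27 tested genes of the Wnt list that rose, and none fell. The median of that list was 0.55, and -0.15 in mural-marked wells.

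Pla1a, a phospholipase that acts on phosphatidylserine, rose from at most 0.765 to 63.2, 13.3, 101 and 38.1 CPM (7.67 ± 1.36, adjusted p = 0.022). Runx1, a transcription factor of the Runt family, rose from 2.45 ± 2.29 to 43.3 ± 22.6 CPM (4.56 ± 0.95, adjusted p = 0.0494). Cck, the precursor of the peptide cholecystokinin, rose from at most 4.78 to between 13.2 and 39.2 CPM (4.75 ± 0.97, adjusted p = 0.0457). Fibroblast-marked wells held 89.6% of the day 10 reads of Pla1a, 76.4% of those of Runx1 and 91.2% of those of Cck. Pla1a and Runx1 lost their calls without number 1, 3 or 4, and Cck without any 1 number.

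Those adhesive glycoproteins of the matrix that rose did so in part with the fibroblast-marked wells and in part without them. Tenascin C, encoded by Tnc and laid down in wounds, held 56.4, 24.3, 94.9 and 64.6 CPM against 197, 122, 469 and 347 (2.18 ± 0.34, adjusted p = 0.0135, lost without number 3 or 4). It reached 50 CPM in 0 of 18 uninjured and 59 of 74 day 10 fibroblast-marked wells, and without those wells its change was -0.83. Fibronectin, encoded by Fn1, held 118, 28.5, 57.9 and 215 CPM against 419.8, 344, 727 and 468 (2.41 ± 0.43, adjusted p = 0.024, lost without number 1, 2 or 3), with 65.8% of its day 10 reads in fibroblast-marked and 32.4% in mural-marked wells. Thbs2, the thrombospondin that binds matrix proteases, rose from 15.2 ± 6.36 to 98.5 ± 36.0 CPM (2.72 ± 0.44, adjusted p = 0.0141), and Vcan, the proteoglycan versican, from 4.73 ± 4.79 to 58.3 ± 41.0 CPM (4.0 ± 0.82, adjusted p = 0.0457). These last 2 lost their calls without number 1, 3 or 4.

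Sparcl1, an anti-adhesive relative of the matrix protein SPARC, was of another kind. It held 6172, 6881, 5161 and 5758 CPM in uninjured and 10079, 12833, 9856 and 9101 CPM in day 10 sums, without overlap (0.80 ± 0.10, adjusted p = 0.00406, lost without number 3). Mural-marked wells held 95.9% of its day 10 reads, and within them the change was 1.12 ± 0.08 (adjusted p = 0.000151). These 5 were the members of the matricellular list that rose, of 22 tested, and none fell (median 0.83).

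Thbs4, a thrombospondin outside that list, rose from 0.938 ± 1.53 to 35.3 ± 23.7 CPM (6.0 ± 1.15, adjusted p = 0.032, lost without number 1, 2 or 3). Among elastic fibre genes, Fbn2, the fibrillin of developing tissue, held at most 0.715 CPM in uninjured and 33.6, 10.8, 59.1 and 50.7 CPM in day 10 sums (7.59 ± 1.09, adjusted p = 0.00955), with 98.2% of its reads in fibroblast-marked wells. Emilin1, a glycoprotein at the surface of elastic fibres, rose from 160.1, 169, 176 and 228 to 478, 345, 682 and 355 CPM (1.30 ± 0.19, adjusted p = 0.0103), and by 1.20 within mural-marked wells (adjusted p = 0.00492). Elastin itself, encoded by Eln, fell from 143, 148, 207 and 180.1 to 62.5, 88.1, 129 and 104 CPM (-0.85 ± 0.16, adjusted p = 0.032). The list of 16 thus held members that moved in opposite directions, with a median of 0.64. Fbn2 lost its call without number 3 or 4, Emilin1 without number 1 or 3, and Eln without any 1 number.

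A few of the enzymes that remodel matrix and of their inhibitors rose. Timp1, the secreted inhibitor of matrix metalloproteinases (chrX:20870166-20874735), held 1.01, 0.333, 8.51 and 5.27 CPM in uninjured and 139.7, 128, 567 and 409.7 CPM in day 10 sums. The highest uninjured sum was far below the lowest day 10 sum, and the change of 6.70 ± 0.60 passed whichever number was left out (adjusted p = 0.0013). Wells with 50 CPM went from 3 of 18 to 61 of 74 among fibroblast-marked and from 2 of 312 to 59 of 248 among mural-marked wells. At day 10 its level in fibroblast-marked wells was 543, 2399 (3 wells), 1934 and 1801 CPM, against 54.0, 17.6, 64.4 and 92.7 CPM in mural-marked wells. The former held 85.5% of its reads. Within mural-marked wells its change was still 5.79 ± 0.73 (adjusted p = 0.00447).

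Serpine2, the protease nexin that inhibits thrombin and plasminogen activators, held 1140.2, 731, 721 and 780.2 CPM against 2949, 2009, 2094 and 2089.9 at day 10. The groups did not overlap, and the change was 1.45 ± 0.10 (adjusted p = 0.000247) and 1.43 in mural-marked wells (adjusted p = 0.000875), which held 75.2% of its reads. Plat, the tissue plasminogen activator that Serpine2 inhibits, rose from 316, 471, 594 and 383 to 618, 837, 1088 and 1045 CPM (1.04 ± 0.18, adjusted p = 0.0181). Mmp14, a metalloproteinase of the cell surface, rose from 132 ± 34.0 to 364 ± 155 CPM with overlap of the groups (1.40 ± 0.21, adjusted p = 0.0124), and Bmp1, which trims procollagen, from 54.8 ± 15.8 to 163 ± 59.7 CPM (1.53 ± 0.20, adjusted p = 0.00816). Plat, Mmp14 and Bmp1 lost their calls without number 1, 3 or 4. Of 24 tested proteases and inhibitors 4 rose and none fell (median 0.76), and Bmp1 was the 1 of 21 genes of collagen processing that rose (median 0.51).

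**Figure D3:**
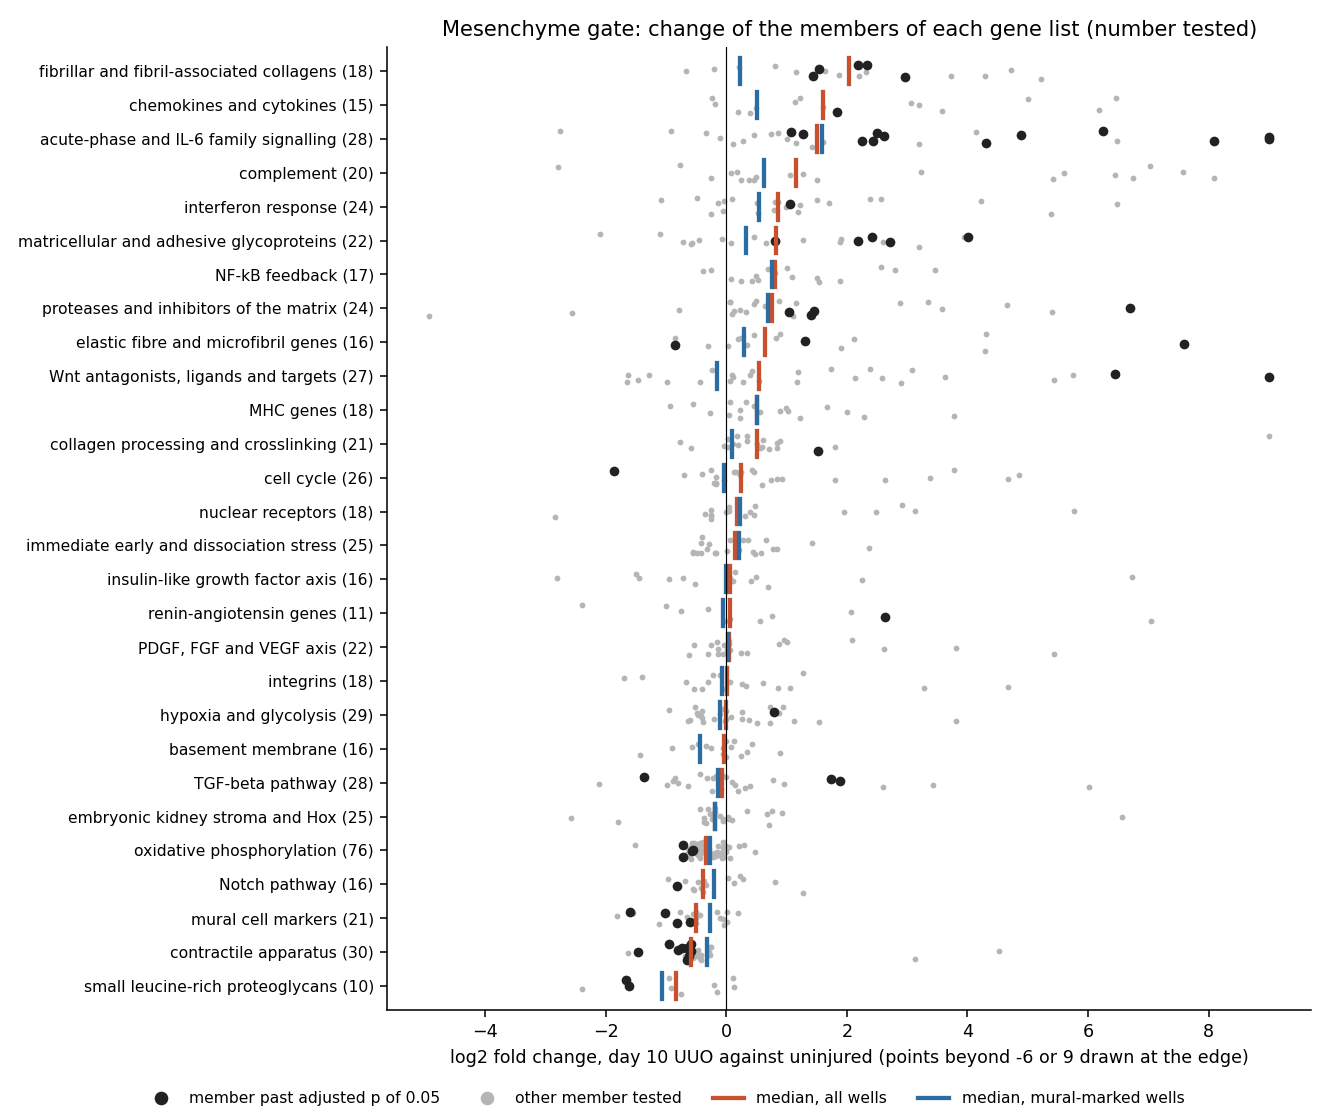
Change of every tested member of 28 gene lists, as log2 fold change of day 10 against uninjured kidney on the x axis, with members past the adjusted p of 0.05 in black. Red bars are list medians over all wells and blue bars those over mural-marked wells, which lie together for the acute-phase list (1.51 and 1.58) and apart for the collagen list (2.03 and 0.22).

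Osteopontin, the secreted phosphoprotein encoded by Spp1, differed widely between numbers. It held 925, 125, 2364 and 605 CPM in uninjured and 3289, 8754, 8741 and 14000.1 CPM in day 10 sums. The groups did not overlap, but the change of 3.20 ± 0.74 did not pass (adjusted p = 0.0664). At day 10, 56.8% of its reads came from fibroblast-marked wells and 41.7% from wells with neither marker set. Among fibroblast-marked wells 3 of 18 uninjured and 48 of 74 day 10 wells held 50 CPM. The day 10 levels of Spp1 there were, by number, 9569, 49696 (3 wells), 20367 and 47404 CPM. Within mural-marked wells its change was -0.10 (adjusted p = 0.993). Of the 48 day 10 fibroblast-marked wells with Spp1, 46 also held Timp1 and 45 also held Tnc, which 61 and 59 of the 74 wells carried.

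**Figure D4:**
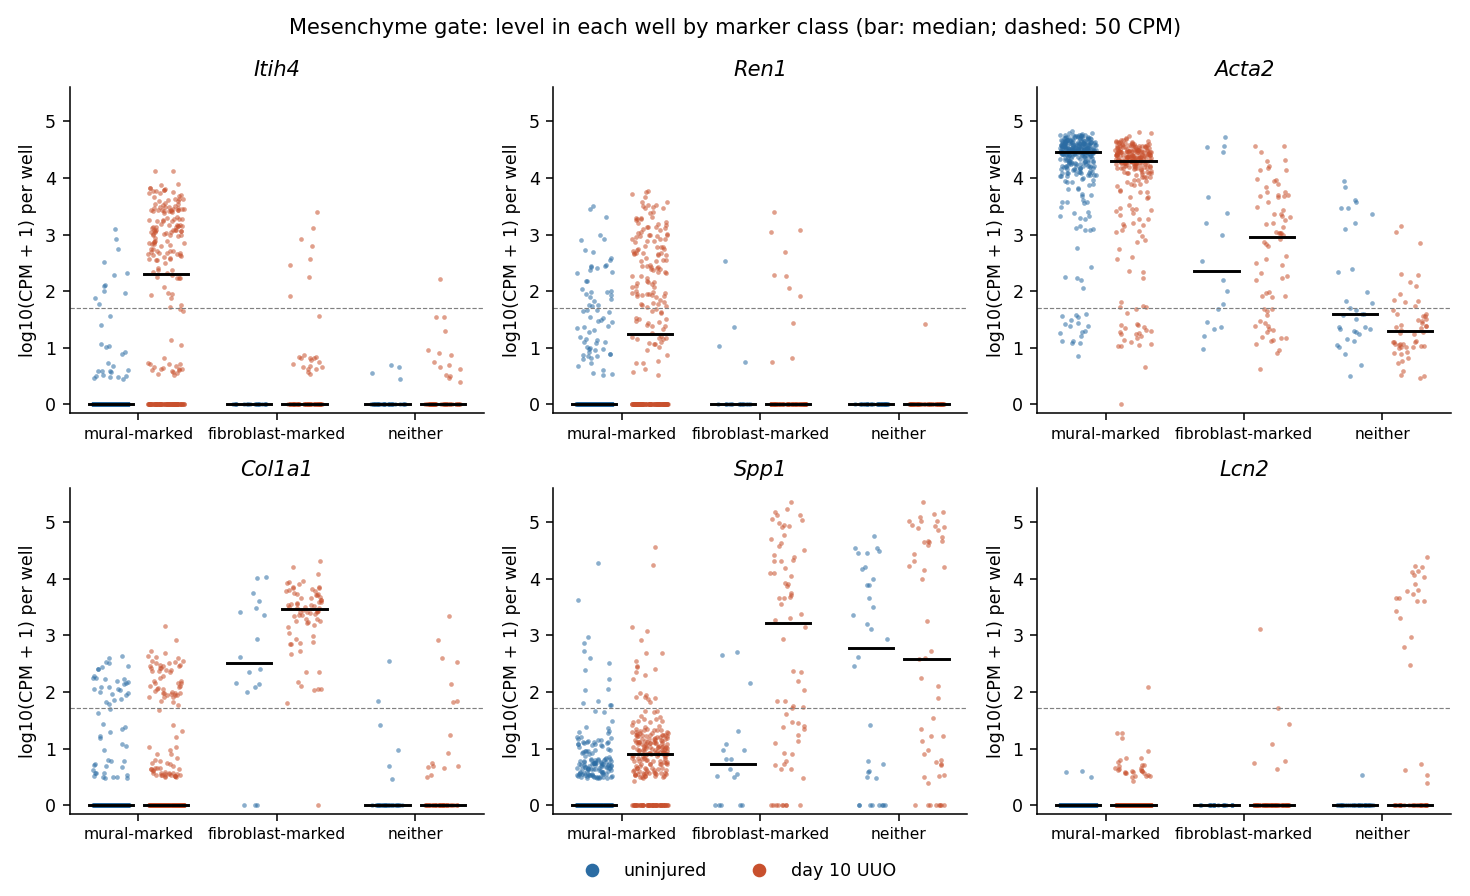
Level of 6 genes in every well, as log10(CPM + 1) on the y axis, in mural-marked, fibroblast-marked and remaining wells of both conditions, with the median as a bar and 50 CPM as a dashed line. Wells above the line at day 10 are mostly mural-marked for Itih4 (136 of 145) and Ren1 (109 of 117), and mostly marked for neither class for Lcn2 (20 of 23).

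Lcn2, the lipocalin that injured tubules release, was nearly absent from uninjured sums, with 4 reads in all, and held 139, 471, 694 and 294 CPM at day 10. The call was among those with the smallest adjusted p (0.000247). It came from few wells: 23 day 10 wells held 50 CPM, 20 of them with neither fibroblast nor mural markers, and these wells held 99.5% of the reads. All 20 also held Spp1. Without the wells that carry epithelial markers (83 uninjured and 34 day 10 wells) its change did not pass (adjusted p = 0.18). Lcn2 is itself 1 of the markers by which those wells were found.

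The wells without either marker set carried markers of other cells. Of the 54 at day 10, 18 carried markers of injured tubule and 23 those of the parietal epithelium of the glomerulus, and of the 34 uninjured ones 8 carried markers of proximal tubule and 17 parietal ones. Podocyte markers were found in 18 of the 34 uninjured and 23 of the 54 day 10 wells, and smooth muscle markers in 12 and 9. Havcr1, the injury molecule KIM-1 of proximal tubule, had 1 uninjured read and 1652 day 10 reads, a ratio of 1767 per read sequenced (95% interval of the counts 317 to 69808). Its sums at day 10 were 0.620, 12.1, 0.887 and 34.5 CPM, it did not pass (adjusted p = 0.0712), and 99.8% of its reads lay in wells with neither marker set. Reads carry no molecular identifiers, so such intervals cover counting error only. The fit without wells of epithelial markers left out 83 uninjured and 34 day 10 wells, a set that differs from the wells with neither marker set. It called 136 of 13896 genes (0.979%), 120 of them among the 193, and gave all 193 genes the same sign. It reuses wells of the fit of all wells, so a shared sign is not independent of that fit. How far the wells with neither marker set enter other changes of the gate was not tested.

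Kap and Slc34a1, transcripts of healthy proximal tubule, fell at day 10. Kap, an abundant androgen-regulated protein of that segment, held 95.3, 23.4, 171 and 311 CPM in uninjured and 1.31, 0.0476, 0.626 and 4.47 CPM in day 10 sums (-6.84 ± 0.72, adjusted p = 0.00236). At least 50 CPM were found in 164 uninjured and 3 day 10 wells of the gate, and in 187 uninjured and 5 day 10 wells of the endothelia gate. The change in the endothelia gate was -6.01, and the difference between the gates did not pass (adjusted p = 0.95). Slc34a1, the phosphate transporter of the same segment, fell from 37.5, 0.0476, 75.6 and 87.8 to at most 1.96 CPM, with overlap at number 2 (-6.34 ± 0.91, adjusted p = 0.00945, lost without number 3). Wells with at least 3 proximal tubule markers went from 69 to 2 in the mesenchyme and from 82 to 0 of 381 in the endothelia gate, which allows a share of up to 0.787%. Whether these reads were in the sorted cells or in the fluid around them was not tested.

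Ptgs2, the inducible cyclooxygenase COX-2 (chr1:150100031-150108227), had no read in the 364 uninjured wells and 40.3, 31.2, 43.9 and 80.0 CPM in the day 10 sums. With 6271 reads at day 10 it was at least 2236-fold higher against the floor of 3 reads over the uninjured group (adjusted p = 0.0013). Its 23 wells at 50 CPM were 12 fibroblast-marked, 10 mural-marked and 1 with neither. The rise rested on few wells, since the top 5 held 61.1% of the day 10 reads. Fibroblast-marked wells held 21.4% of these reads, mural-marked wells 55.7% and wells with neither 22.9%. The change of Ptgs2 differed from that in the endothelia gate (adjusted p = 0.0311), where it held 21.4 ± 18.4 CPM in uninjured and 5.83 ± 6.88 CPM in day 10 sums. Ifitm3, an antiviral membrane protein, rose from 485, 426, 519 and 479 to 1279, 867, 1101 and 778 CPM (1.07 ± 0.15, adjusted p = 0.00909, lost without number 3) and was the 1 of 24 genes of the interferon list that passed. Cx3cl1, the chemokine fractalkine, rose from 53.1 ± 42.7 to 155 ± 66.1 CPM with overlap (1.84 ± 0.33, adjusted p = 0.0241, lost without number 1, 2 or 3), as the 1 of 15 chemokine and cytokine genes that passed. No gene passed among 20 complement, 18 MHC and 17 NF-kB feedback genes, whose medians were 1.16, 0.51 and 0.81.

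Genes of TGF-beta and BMP signalling moved in both directions. Id1, a direct target of bone morphogenetic proteins that blocks differentiation factors, held 559, 704, 842 and 775 CPM in uninjured and 171, 269.7, 421 and 305 CPM in day 10 sums. No day 10 sum reached an uninjured one, and the change of -1.36 ± 0.13 passed whichever number was left out (adjusted p = 0.00159). It fell by 1.34 in the endothelia gate too (adjusted p = 0.000337), and by 1.04 in mural-marked wells (adjusted p = 0.0112). Tgif1, a repressor of SMAD targets, rose from 14.9, 28.8, 32.5 and 47.3 to 66.7, 115, 107 and 100.1 CPM (1.74 ± 0.24, adjusted p = 0.00862, lost without number 1 or 3). Tgfbr2, the type II receptor that binds the TGF-beta ligands, rose from 56.2 ± 27.5 to 199.7 ± 60.3 CPM (1.88 ± 0.33, adjusted p = 0.0205, lost without any 1 number). These were the 3 of 28 members of the list that passed, and its median was -0.08.

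Ccnd1, the D cyclin that drives entry into the cell cycle, was lower, with 209, 183, 175 and 162 CPM in uninjured and 22.7, 62.7, 62.2 and 56.5 CPM in day 10 sums. The fall was larger than the spread in either group (-1.86 ± 0.31, adjusted p = 0.0166, lost without number 3 or 4), and wells with 50 CPM went from 159 to 66. In the endothelia gate its change was 0.33, and the difference of -2.15 between the gates passed (adjusted p = 0.0209). It was the only 1 of 26 cell cycle genes to pass. None passed among 25 immediate early genes that tissue dissociation is known to raise, whose median change was 0.14.

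A few genes of mitochondrial respiration fell by small amounts. Atp5b, a subunit of ATP synthase, held 2869.9, 3226, 3344 and 2897 CPM against 1927, 2148, 1838 and 1601, without overlap (-0.72 ± 0.10, adjusted p = 0.00862, lost without number 3 or 4). Sdhc and Sdha, subunits of succinate dehydrogenase, fell by 0.72 ± 0.12 and by 0.57 ± 0.11 (adjusted p = 0.0205 and 0.0328), and Uqcrc1, of complex III, by 0.54 ± 0.11 (adjusted p = 0.0459). Those 4 were the members of the oxidative phosphorylation list that fell, of 76 tested, and none rose, while 7 of the 76 changes were above 0 and the median was -0.34. Without wells of epithelial markers 2 of 75 fell, where 0.979% of all genes passed in either direction. In mural-marked wells 1 of 75 fell, where 0.317% of all genes did. Ldha, the lactate dehydrogenase subunit of glycolysis, rose from 249, 246, 342 and 263 to 547, 434, 489 and 423 CPM (0.79 ± 0.14, adjusted p = 0.0226) as the 1 of 29 hypoxia and glycolysis genes that passed. Sdhc, Sdha, Uqcrc1 and Ldha lost their calls without any 1 number.

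Further large falls were spread over genes without a shared list. Osr2, a transcription factor of kidney mesenchyme, fell from 12.6, 18.1, 122 and 13.9 to 0.521, 1.38, 8.66 and 2.03 CPM (-3.81 ± 0.63, adjusted p = 0.0166, lost without number 3 or 4), and number 3 was highest in both groups. Gstm1, a glutathione transferase, held 458, 407, 1109 and 464 CPM against 157, 195, 236 and 160.4 (-1.59 ± 0.23, adjusted p = 0.00945, lost without number 1 or 3). Ppp1r3c, which targets a phosphatase to glycogen, fell from 170.3 ± 68.5 to 53.0 ± 10.1 CPM (-1.60 ± 0.28, adjusted p = 0.0218). Tmem255b (-2.62 ± 0.53), Baiap2l2 (-2.02 ± 0.42), Cbfa2t3 (-1.80 ± 0.37) and Nhsl2 (-1.61 ± 0.28) also fell, with adjusted p between 0.0202 and 0.0484, and all 4 and Ppp1r3c lost their calls without any 1 number. Tmem51os1 is antisense to another gene, and since strand is not stated in the counting, its fall of 2.43 ± 0.43 (adjusted p = 0.0213) is uncertain.

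The fit of mural-marked wells alone shows which changes of the gate were also seen with the fibroblast-marked and other wells set aside. It called 107 of 13231 genes (0.809%), and 75 of these were among the 193, which is 38.9% of the 193 and 70.1% of the 107. All 75 moved the same way, and 182 of the 188 genes that could be tested there kept their sign. The mural-marked wells are also part of the fit of all wells, so a shared sign is not independent of that fit. Without fibroblast-marked wells only, 90 of 14138 genes passed (0.637%), 82 of them among the 193. Fewer wells enter these fits, so a call lost in them does not show that the change was absent.

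**Figure D5:**
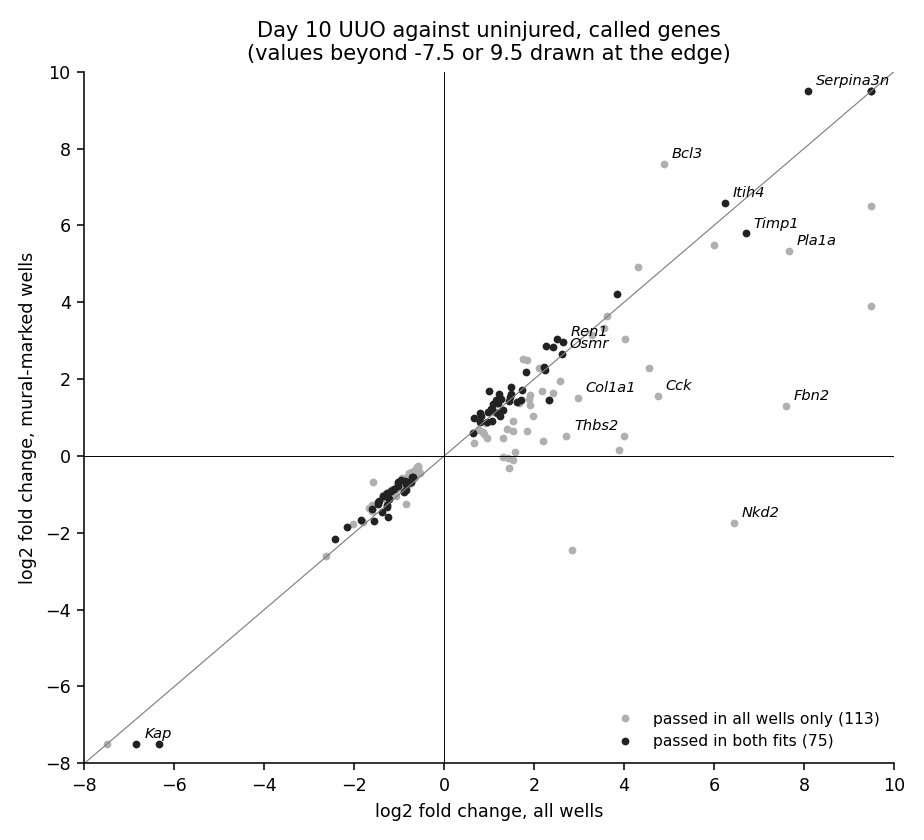
Log2 fold change of day 10 against uninjured kidney over all wells (x axis) and over mural-marked wells alone (y axis) for the 188 called genes tested in both, with the 75 that passed in both in black and the line of equality. Itih4 (6.24 and 6.59) and Ren1 (2.63 and 2.98) lie near the line, and Nkd2 (6.44 and -1.75) lies below it.

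Few genes passed edgeR's test between day 10 and day 2, which does not show that few differed. Between day 10 and day 2 of UUO 7 of 14582 genes passed (0.048%), 6 of them higher (0.0411%) and 1 lower (0.00686%) at day 10, and without number 3 none passed (940 at an unadjusted p under 0.05 in edgeR), while DESeq2 called 376 over all 4 numbers. Lcn2 was higher at day 10 than at day 2, with a day 2 mean of 6.76 CPM (change 6.13, adjusted p = 0.0078), and so was Serpine2 (change 0.72, adjusted p = 0.048). Ephx3, an epoxide hydrolase, was the 1 gene that was lower, with means of 267 CPM in uninjured, 444 at day 2 and 104 at day 10 (change from day 2 -2.09, adjusted p = 0.00287), and is named after its values were seen. Day 2 means were 898 CPM for Itih4, 208 for Serpina3n, 407 for Osmr and 615 for Stat3, next to 874, 136, 385 and 472 at day 10. For Col1a1, Nkd2 and Fbn2 the day 2 means were 162, 1.63 and 1.21 CPM, next to 766, 121 and 38.5 at day 10, but none of these 3 passed the test between the days. The comparisons of each day with uninjured kidney share the uninjured sums.

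Gene reads per spike-in read and genes per well at an even depth were higher at day 10 in 4 of 4 numbers. The groups overlapped in each measure. The median well held 284, 279, 361 and 363 gene reads per read of the added spike-in RNA in uninjured and 309, 349, 523 and 436 in day 10 kidneys (exact permutation, two-sided, p = 0.171). Genes per well at an even depth of 100000 reads were 2914, 2898, 3032 and 3046 against 2944, 3045, 3506 and 3435 (exact permutation p = 0.143), and both values became 0.171 after adjustment over the pair of tests. Within mural-marked wells both measures were higher at day 10 in 3 of 4 numbers (exact permutation, unadjusted p = 0.286 and 0.229). These tests leave the shared plates of a number out of account. Changes above are relative to all reads of a sum and do not use the spike-in.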

How the data were processed

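Per the labels, kidneys were digested with enzymes, cells were sorted by flow cytometry and libraries were made with Smart-seq2. The authors deposited, for each plate, raw read counts per gene and well, raw counts for 92 spike-in RNAs and a layout with the label of each well. STAR and mm10 are named in the submitters' processing notes, and the counting tool, the annotation, its use of strand and any filter are not given in the sources used here. Every deposited column was mapped to a plate (0 were not). Of 24490 gene entries 771 share 279 symbols, and entries of 1 symbol were added, leaving 23998. Doublets were not called.

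The 12 mesenchyme sums (3 conditions, 4 numbers) were fitted in edgeR 4.0.16 (R 4.3.3) after filterByExpr and TMM scaling, with number as a block, and tested with quasi-likelihood F tests at a Benjamini-Hochberg adjusted p under 0.05. The block rests on the plates that sums of 1 number share per the labels. Deviations of same-numbered uninjured and day 10 sums correlated at 0.0605 to 0.126 across genes, and those of other pairings at -0.131 to 0.0338. Both the assumed mouse and the plates differ between the 4 sums of a condition, and these cannot be told apart. The p-values measure the spread between these sums. Each SE was obtained by dividing the absolute log2 change by the root of its F value. The difference between gates was tested in a fit of 24 sums. A well carried a class when 3 of its markers (2 for lists of up to 5) reached 50 CPM. Shares of wells, gene reads per spike-in read and genes per well were compared with exact permutation tests (scipy 1.17.1). Levels by marker class and well are CPM without TMM scaling. Promoters came from RefSeq and gene positions from the GENCODE annotation, both on GRCm38.p6, the assembly behind the mm10 that the notes name.

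Named by rule were, for rises and for falls, the 15 called genes with the greatest fold (average log2 CPM not below 4, no number moving the other way, unnamed gene models left out), up to 4 members of smallest p per list, 7 fixed genes, and for the difference between gates 5 in each direction. A shared direction over the numbers was therefore a condition of naming for those genes, of which 1 is not reported here. The comparison, the lists and the markers were chosen with earlier results of these data known. DESeq2 1.42.0, other scalings and filters, thinned wells, subsets of wells, sums per plate and left-out numbers were alternatives.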

Additional observations from a re-analysis of the deposited data

Results flagged for a closer look

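In 180 groups of 4 sums of named genes, 16 held a sum far from the other 3, by a test for a single distant value. Chance flags about 1 in 20 groups. Uninjured number 3 stood apart for Osr2 (121.8 CPM, others 12.6 to 18.1), Gstm1 (1109 CPM, others 407 to 464), Tagln (4636 CPM, others 3150.2 to 3382), Smtn (1040.3 CPM, others 763 to 798), Sdha (819 CPM, others 697 to 714) and Uqcrc1 (558 CPM, others 460.0 to 467). Uninjured number 4 stood apart for Serpina3n (2.99 CPM), Thbs4 (3.22 CPM) and Havcr1 (0.0233 CPM, others 0), and uninjured number 1 for Lcn2 (0 CPM, others up to 0.0492), all of which are levels of a few reads, and for Serpine2 (1140.2 CPM). At day 10, number 1 stood apart for Ccnd1 (22.7 CPM, others 56.5 to 62.7) and Serpine2 (2949 CPM, others 2009 to 2094), number 2 for Col12a1 (254 CPM, others 747 to 826) and Bmp1 (74.7 CPM, others 184 to 205), and number 4 for Pecam1 (12.5 CPM, others up to 1.09). Among shares of wells, uninjured kidneys held endothelial markers in 1 number only (1.67%) and immune markers in 1 number only (1.67%), and the day 10 share with injured tubule markers was lowest in number 1 (1.59%, others 6.25% to 7.20%).

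The change at day 10 differed between the mesenchyme and the endothelia gate for 13 named genes by the test of that difference. Over all genes the test called 41 of 16116 (0.254%). Up to 5 genes in each direction were named because they passed it, so the count of 13 follows in part from the naming. The change was higher in the mesenchyme gate by 4.37 for Timp1, 6.89 for Trim16, 6.85 for Parvb and 6.57 for Tnfrsf26 on the log2 scale. Trim16, Parvb and Tnfrsf26 were near 0 in uninjured mesenchyme sums (0.0236, 0.0232 and 0.0875 CPM) and held 4.78, 3.33 and 12.2 CPM at day 10, while they were abundant in the endothelia gate in both conditions (141, 50.8 and 125 CPM in uninjured sums). By these levels they met the naming filter on average level through the endothelia gate. Wells of the mesenchyme gate with endothelial markers went from 2 of 364 to 9 of 376. Whether such wells held these reads was not tested. Fitted differences of 16.30 for Ptgs2 and 24.63 for Wnt2 rest on groups at 0 and depend on the prior count of the fit. The change was lower in the mesenchyme gate for Ccnd1 (-2.15), Myl6 (-0.92), Tmeff2 (-6.96), Fabp4 (-4.25), Rnd1 (-3.98), Trp53i11 (-3.23) and Hmbox1 (-2.84). Of these, Fabp4, a fatty acid carrier of capillaries, went from 695 ± 255 to 2384 ± 550 (SD, n = 4) CPM in the endothelia gate and from 32.6 to 7.47 CPM in the mesenchyme gate.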

How the results depend on the processing

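Against the 193 calls between day 10 and uninjured kidney, the fit with no replicate block called 125, 8 sums without day 2 called 103, DESeq2 1144, sums per plate 509, wells thinned to 100000 reads 360, wells without fibroblast markers 90 and mural-marked wells 107. DESeq2 size factors (189), no filter (272), stricter wells (199), leaving out wells of other types (191) and of epithelial markers (136, chosen after seeing the data) stayed within 1.5 times. Leaving out 1 number gave 28 to 205 calls. Against the 7 calls between day 10 and day 2, no block gave 4, DESeq2 376, no filter 31, wells without fibroblast markers 2, mural-marked wells 3, and left-out numbers 0 to 5. Against the 41 calls between gates, no block gave 26, DESeq2 566, no filter 25, thinned wells 27, leaving out wells of other types 22, and left-out numbers 1 to 11. Signs turned for Nkd2 (-1.34 without fibroblast-marked and -1.75 in mural-marked wells), Tnc (-0.83 without fibroblast-marked wells), and in mural-marked wells for Spp1 (-0.10), Col5a1 (-0.10) and Col1a2 (-0.31). Of the 77 called genes named, 66 lost their call without number 3, 54 without number 1, 52 without number 4 and 20 without number 2, and 32 without the block. No test of the shares of wells, of gene reads per spike-in read or of genes per well turned its direction. Causes were not tested. With 19382742 to 42619147 reads a sum, depth limits genes of a few reads per sum, and the 4 numbers per group limit the rest.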

Other observations

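Lists that the account above does not describe showed few calls. None passed among 16 genes of the insulin-like growth factor axis, 22 of the PDGF, FGF and VEGF axis, 18 integrins, 18 nuclear receptors and 25 genes of embryonic kidney stroma and Hox clusters, whose medians were 0.06, 0.05, 0.02, 0.18 and -0.19. Of 16 Notch pathway genes only Notch3 passed, and the median was -0.38.

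The count tables hold an entry named eGFP, the green fluorescent protein of jellyfish, which the labels do not explain. It held 463, 412, 770.0 and 488 CPM in uninjured and 491, 279, 699.8 and 404 CPM in day 10 sums of the mesenchyme gate, and its change of -0.22 did not pass (adjusted p = 0.5, edgeR).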
